A study of Capra hircus with 3 samples.

Results

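Histocompatibility genes were described in RNA sequencing libraries of goat (Capra hircus) longissimus dorsi, a long muscle of the back, at 3 ages: kid (2 months), youth (9 months) and adult (24 months). Members were all entries of the deposited expression table whose product text contained "histocompatibility" or "beta-2-microglobulin", whatever their values. There were 39 of 24689: 16 class I heavy chain entries, 18 class II entries, 3 beta-2-microglobulin entries and 2 minor histocompatibility antigens. Each age had 1 library. No difference below therefore has a replicate check, no test between ages was possible, and every value describes these libraries. No treatment was named, and the breed and sex of the goats, and whether a library held 1 animal or a pool, were not stated in the labels.

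Major histocompatibility complex (MHC) proteins hold peptides at the cell surface, where T cells inspect them. A class I molecule pairs a heavy chain with beta-2-microglobulin, shows peptides cut in the cytosol, and is made by nearly all nucleated cells. A class II molecule pairs an alpha with a beta chain, shows peptides from taken-up material, and is made mainly by macrophages, dendritic cells and B cells. In healthy muscle, the fibres are known to carry little class I, and most of the class I and class II signal lies in capillaries and in the cells between fibres. MHC genes are among the most variable genes of a vertebrate genome. They differ between animals in sequence and in the number of copies, so a reference genome holds only 1 version of them.

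Values were FPKM, in which fragments are divided by gene length and library size. Recovered library totals ran from 14920689 in youth over 15829474 in kid to 18399385 in adult, and 1 read per kb of gene length was worth 0.0670, 0.0632 and 0.0543 FPKM, in this order. The defining genes of muscle fibres were abundant: skeletal alpha-actin (ACTA1) stood at 14480, 17994 and 21435 FPKM in kid, youth and adult. The extraction label names mammary tissue, while 6 of 6 milk protein genes were listed at 0 in all 3 libraries. Each ratio between libraries carries an exact 95% interval computed from its reads, and such intervals cover counting error only. An interval that leaves out 1 is called beyond counting error. How the authors counted reads that match several copies is not stated, so values of single copies are uncertain and are set beside the sums of their class.

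The names of the entries come from other species: BOLA is the cattle, SLA the pig, DLA the dog, HLA the human, H-2 the mouse and Mamu the rhesus macaque complex. Of the 39 entries, 35 were described as "-like", among them all 16 of class I. By their gene numbers, 27 were found in a RefSeq gene table of goat (assembly ARS1.2), which was used for names and neighbours only. There, 18 of the 27 lay on a single chromosome, and 12 lay next to another member. The DM alpha and DM beta entries were such neighbours, and DM beta lay next to PSMB9, a proteasome subunit gene. B2M lay next to another beta-2-microglobulin entry. The other 12 members, 5 of class I, 6 of class II and 1 of beta-2-microglobulin, had no match by gene number.

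Of the 39 members, 26 averaged at least 1 FPKM over the libraries, 9 were above 0 with a lower mean, and 4 were at 0 throughout. The 26 are described singly or in counts, and so are CIITA, the DO pair and the E-S beta entry among the lower ones, chosen for their role or place after their values were seen. Recovered gene lengths of the members above 0 ran from 325 to 3755 bases, with a median of 1161.

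**Figure D1:**
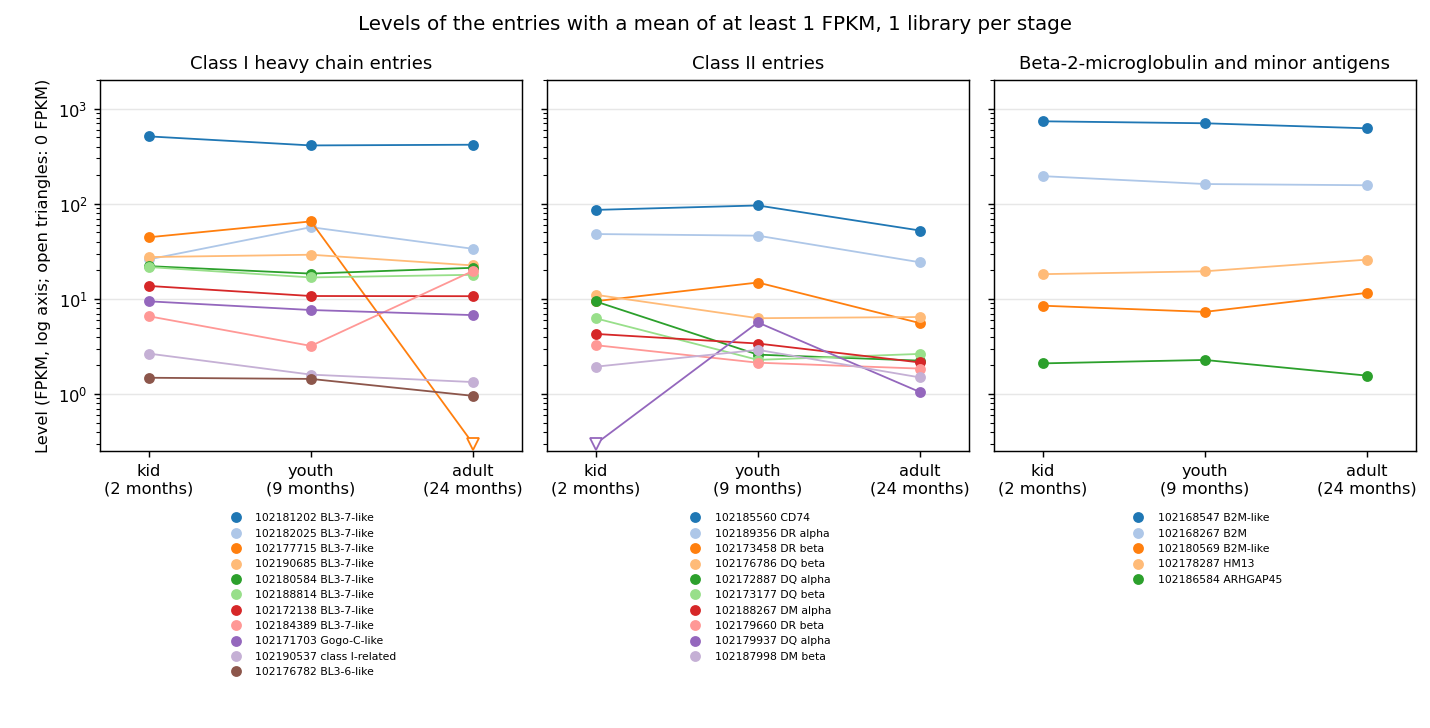
Level in FPKM (log axis) of the 26 members with a mean of at least 1 FPKM, in the kid, youth and adult library; each point is 1 library, lines join the values of an entry, and open triangles mark 0 FPKM. Most lines run nearly level or slope down to adult, while entry 102177715 drops from 65.4 FPKM to 0 and entry 102179937 starts at 0 and stands at 5.66 in youth.

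Beta-2-microglobulin, the light chain shared by class I molecules, was the most abundant member and differed little between the libraries. Its 3 entries summed to 941 FPKM in the kid library, 872 in youth and 791 in adult. The sum was 1.08-fold lower in youth than in kid (interval 1.05 to 1.11) and 1.10-fold lower in adult than youth (1.07 to 1.13). The step from kid to youth was near the scaling of the libraries: the ratio was 0.926 as deposited and 0.988 or 0.990 after median-of-ratios or quantile scaling. Entry 102168547 held most of it, at 737, 703 and 622 FPKM in kid, youth and adult. Its level was lowest in adult, 1.13-fold below youth (1.10 to 1.16). The neighbouring gene named B2M (102168267) stood at 195, 162 and 157 FPKM. Here kid was apart, and youth and adult were not beyond counting error (ratio 0.971, 0.891 to 1.06). The third entry, 102180569, ran the other way, at 8.50, 7.31 and 11.6 FPKM, and was 1.58-fold higher in adult than in youth (1.08 to 2.34). It held 0.434%, 0.398% and 0.704% of the beta-2-microglobulin reads (Clopper-Pearson intervals 0.326 to 0.568, 0.288 to 0.535 and 0.562 to 0.871).

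Class I heavy chains, which carry the peptide groove, summed to 688 FPKM in the kid library, 623 in youth and 554 in adult. The sum was 1.10-fold lower in youth than in kid (1.07 to 1.14), 1.13-fold lower in adult than youth (1.09 to 1.16) and 1.24-fold lower in adult than in kid (1.21 to 1.28). The light chain exceeded the heavy chains by a near-constant factor on the FPKM scale: 1.37 in kid, 1.40 in youth and 1.43 in adult. One BL3-7-like entry, 102181202, which lay next to TRIM26 in ARS1.2, held 74.5% of class I reads in kid (Clopper-Pearson 73.7 to 75.3), 69.1% in youth (68.1 to 70.1) and 74.3% in adult (73.5 to 75.2). Its levels were 512, 411 and 418 FPKM. Kid stood above the others, and adult and youth could not be told apart (ratio 1.02, 0.983 to 1.05). Without this entry the other 15 summed to 177, 212 and 135 FPKM, so that youth was then 1.20-fold above kid (1.13 to 1.28) rather than below it, and adult was 1.57-fold below youth (1.47 to 1.67).

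**Figure D2:**
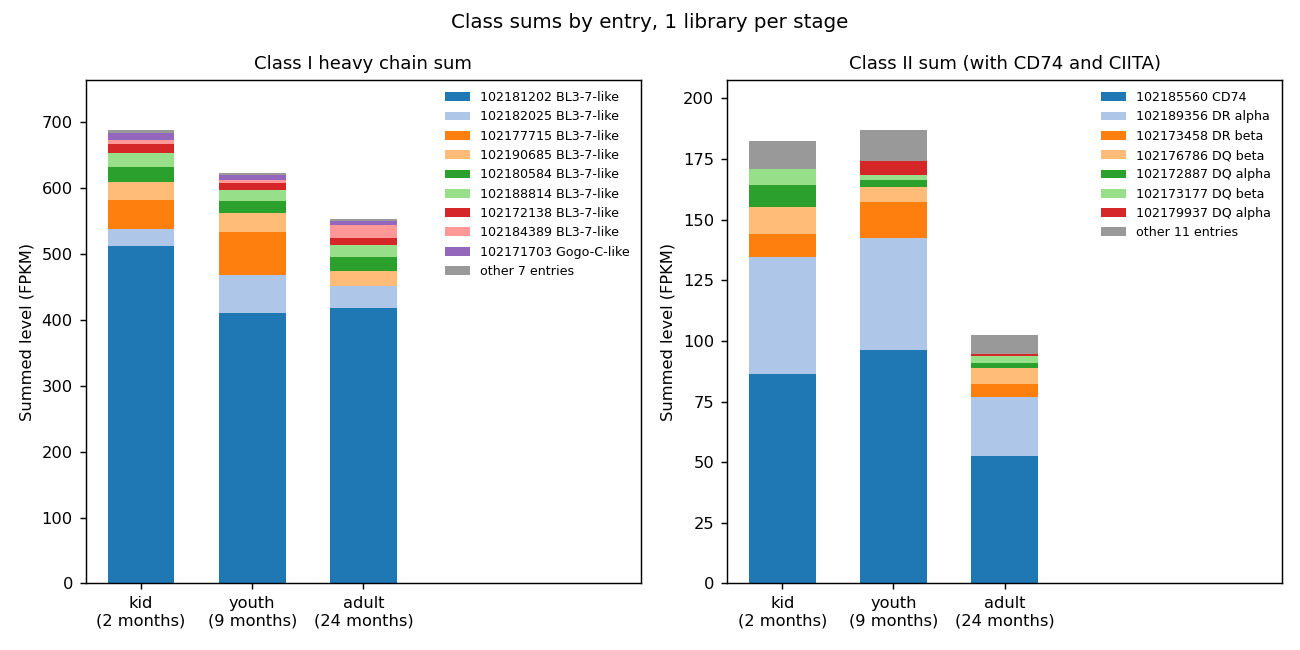
Summed level in FPKM of the class I entries (left) and of the class II entries with CD74 and CIITA (right) in each library, with the entries stacked by colour and the remaining entries in grey. The class I bars step down from 688 to 623 and 554 FPKM and are mostly 1 entry, while the class II bars stand at 183, 187 and 103 FPKM.

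The adult step of the class I sum was smaller without 1 copy, picked after its 0 in adult was seen. Entry 102177715, a short BL3-7-like copy of 325 bases, was at 44.5 FPKM in the kid library (229 reads) and 65.4 in youth (317 reads), and had no read in adult. Against a floor of 3 reads, worth 0.502 FPKM, it was at least 130.3-fold lower in adult than youth and at least 88.7-fold lower than in kid. Among 12121 entries with a mean of at least 1 FPKM it had the lowest difference on the log2(FPKM + 1) scale in both comparisons with adult, -6.05 and -5.51. Its 0 of 10305 class I reads in adult allow a share of up to 0.0291%, against 3.59% in youth (3.21 to 4.0). Without this entry the class I sum was 644, 558 and 554 FPKM, and adult and youth no longer differed beyond counting error (ratio 0.992, 0.963 to 1.02). Adult stayed below kid (ratio 0.860, 0.836 to 0.884). Leaving out an entry at 0 in adult can only raise the ratio of adult to the other libraries.

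Another pair of class I copies also differed at least 2-fold between libraries, each in its own pattern. A difference of at least 1 on the log2(FPKM + 1) scale is counted here as 2-fold. Entry 102182025 was at 26.1 FPKM in the kid library, 56.8 in youth and 33.7 in adult, 2.18-fold higher in youth than in kid (1.91 to 2.49). Youth was the high library and kid the low one. Entry 102184389, listed as a transcribed pseudogene in ARS1.2, was at 6.58, 3.21 and 19.7 FPKM from 37, 17 and 129 reads. Here adult was the high library, 6.15-fold above youth (3.70 to 10.9) and 3.0-fold above kid (2.07 to 4.45). The remaining BL3-7-like entries named here stayed within 1.30-fold between their highest and lowest library. Entry 102190685 was at 27.6, 29.2 and 22.5 FPKM, lowest in adult. Entries 102180584 (22.1, 18.5 and 21.3 FPKM), 102188814 (21.7, 16.8 and 18.0) and 102172138 (13.7, 10.7 and 10.7) were highest in kid. In adult against youth none of these 3 was beyond counting error. For 102180584, adult and kid were not beyond counting error either (ratio 0.961, 0.820 to 1.13).

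Class I entries whose text names something other than a BL3-7-like chain were low and highest in kid. The Gogo-C-like entry 102171703, named after a gorilla allele and placed off the chromosome that held most members, was at 9.45, 7.65 and 6.77 FPKM, 1.40-fold lower in adult than in kid (1.21 to 1.62). The class I-related entry 102190537, whose product text is that of the MR1 family, which shows vitamin B metabolites to mucosal T cells, was at 2.67, 1.60 and 1.34 FPKM. It was 1.99-fold lower in adult than in kid (1.29 to 3.12). The BL3-6-like entry 102176782 was at 1.48, 1.44 and 0.958 FPKM, with no pair of libraries beyond counting error. The other 5 class I entries had means under 1 FPKM, at most 0.459 FPKM and 9 reads in any library, and 1 of them was at 0 throughout.

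Class II differed more than class I between adult and the younger libraries. The 18 class II entries, which include the invariant chain CD74 and the regulator CIITA, summed to 183 FPKM in the kid library, 187 in youth and 103 in adult. The sum was 1.82-fold lower in adult than youth (1.71 to 1.94) and 1.78-fold lower than in kid (1.67 to 1.89), while youth and kid were not beyond counting error (ratio 1.02, 0.970 to 1.08; 1.09 after median-of-ratios scaling). The 16 alpha and beta chain entries alone summed to 95.3, 90.2 and 49.8 FPKM, 1.81-fold lower in adult than youth (1.67 to 1.96). In these bulk libraries, fewer cells of a class II-bearing type and less class II RNA per cell cannot be told apart. Class I heavy chains exceeded class II chains 7.22-fold in kid, 6.92-fold in youth and 11.1-fold in adult on the FPKM scale.

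The DR pair, the main class II product in most mammals, carried most of the chain signal. DR alpha (102189356) was at 48.1 FPKM in the kid library, 46.3 in youth and 24.3 in adult, from 977, 885 and 573 reads. Adult was the low library, 1.91-fold below youth (1.71 to 2.12) and 1.98-fold below kid (1.79 to 2.20), and the younger pair did not differ beyond counting error. The 4 DR beta entries summed to 12.7, 17.0 and 7.66 FPKM. This sum was 1.34-fold higher in youth than in kid (1.07 to 1.67) and 2.22-fold lower in adult than youth (1.74 to 2.86). Entry 102173458 held most of it, at 9.48, 14.9 and 5.57 FPKM, with youth high and adult low (2.67-fold, 2.01 to 3.60). Entry 102179660 was at 3.27, 2.14 and 1.85 FPKM, highest in kid, and the other DR beta entries had at most 3 reads in any library.

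In the DQ group, a second polymorphic class II pair, the 6 entries summed to 26.7, 16.8 and 12.4 FPKM, 1.59-fold lower in youth than in kid (1.38 to 1.83) and 2.16-fold lower in adult than in kid (1.86 to 2.50). Between kid and youth the single DQ alpha copies were further apart than their sum. DQ alpha entry 102172887 was at 9.41 FPKM in the kid library, 2.60 in youth and 2.25 in adult (173, 45 and 48 reads), 3.62-fold lower in youth than in kid (2.60 to 5.15). DQ alpha entry 102179937 had no read in kid, and was at 5.66 FPKM in youth (105 reads) and 1.05 in adult (24 reads). Against a floor of 3 reads in kid, worth 0.152 FPKM, it was at least 37.1-fold higher in youth and at least 6.88-fold higher in adult. Kid thus had reads of the first copy alone, and youth had more of the second. The sum of the DQ alpha entries was 9.41, 8.26 and 3.30 FPKM, with youth and kid not beyond counting error (ratio 0.877, 0.700 to 1.10) and adult 2.51-fold below youth (1.88 to 3.37).

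The DQ beta entries took another course. Entry 102176786 was at 11.1, 6.28 and 6.46 FPKM, and entry 102173177 at 6.26, 2.29 and 2.65 FPKM. In both, kid was high and youth and adult were alike within counting error. Their sum was 17.3 FPKM in the kid library, 8.57 in youth and 9.11 in adult, 2.02-fold lower in youth than in kid (1.68 to 2.44), with adult and youth not beyond counting error (ratio 1.06, 0.866 to 1.31). The alpha and beta sums of DQ thus stood apart from each other in different libraries: alpha was low in adult, beta in both youth and adult. An entry described after the mouse E-S beta chain, 102180664, lay next to DQ alpha entry 102179937 in ARS1.2. It was at 0.376 FPKM in kid from 6 reads, 1.66 in youth from 25 reads and 0.701 in adult from 13 reads. Youth was above kid (4.42-fold, 1.77 to 13.2), and adult and kid were not beyond counting error (ratio 1.86, 0.661 to 5.98).

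CD74 and the DM pair, which serve class II loading, were lower in adult than in youth, as the sum of the chains was. CD74 (102185560), the invariant chain that blocks the groove until it meets peptide and the most abundant class II member, was at 86.4 FPKM in the kid library, 96.2 in youth and 52.4 in adult. It was 1.84-fold lower in adult than youth (1.67 to 2.02) and 1.65-fold lower than in kid (1.5 to 1.82). DM alpha (102188267) and DM beta (102187998), the pair that exchanges the invariant chain remnant for peptide, were low, DM alpha at 4.29, 3.40 and 2.15 FPKM and DM beta at 1.94, 2.92 and 1.5. In adult against youth, DM alpha was 1.58-fold lower (1.06 to 2.38) and DM beta 1.95-fold lower (1.31 to 2.93). The DO pair, which restrains DM, lay near the limit of detection, with DO alpha at 0.501, 1.0 and 0.527 FPKM and DO beta at 0.614, 1.05 and 0.609 FPKM, and neither was beyond counting error in any comparison. CIITA, the coactivator that class II genes depend on, was at 0.808, 0.634 and 0.348 FPKM, 2.32-fold lower in adult than in kid (1.38 to 4.02).

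Counts of members 2-fold apart are given beside the share of all entries as a description. In youth against kid, 4 of 26 members were 2-fold apart, against 1.05% of 12121 entries. With a pseudocount of 5, or with a mean of at least 5 FPKM required, the count of members was 1. In adult against youth the count was again 4 of 26, against 2.08%, and in adult against kid 4 of 26, against 1.76%. With a pseudocount of 5 each of these counts was 2. Entry 102179937 is counted in all 3 comparisons, although it passed the minimum mean of 1 FPKM only through youth, where it was high. These comparisons share libraries, so the counts are not independent, and copies that share reads are not independent of one another. Over any pair of libraries, 7 of 26 members were 2-fold apart, 3 of class I and 4 of class II, against 3.47% of all entries. Of the 7, 5 were among the 9 members with no match in ARS1.2, and 2 were among the 17 with a match. The shares among all entries with and without a match are not given here, so this split has no background to be read against. None of the 3 beta-2-microglobulin entries and neither minor antigen was among the 7.

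**Figure D3:**
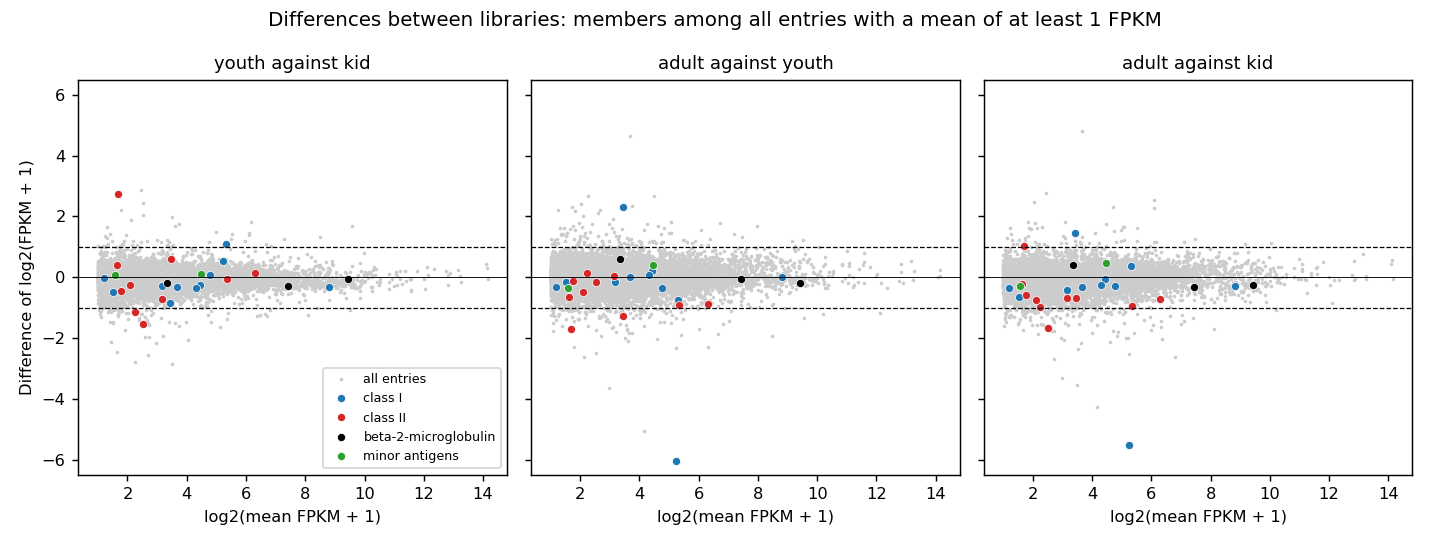
Difference of log2(FPKM + 1) between libraries (vertical axis) against log2(mean FPKM + 1) for all 12121 entries with a mean of at least 1 FPKM (grey) and the 26 members (class I blue, class II red, beta-2-microglobulin black, minor antigens green); dashed lines mark 2-fold. Most members lie inside the dashed lines, and a class I entry at -6.05 and -5.51 is the lowest point of both comparisons with adult.

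Beyond counting error, more members were lower than higher at the later age in each comparison, and the same held for all entries. In youth against kid, 6 of 26 members were higher and 12 lower beyond counting error, where 11.6% and 27.0% of all entries were. In adult against youth, 3 were higher and 11 lower, against 22.3% and 27.0% of all entries. In adult against kid, 4 were higher and 18 lower, against 16.7% and 34.6%. Among the 10 class II members in adult against youth, 6 were lower and none higher by the exact interval of reads, with a median of -0.57 on the log2(FPKM + 1) scale against -0.02 over all entries. The 11 class I members had a median of -0.15 in the same comparison. In youth against kid the medians were -0.16 for class II and -0.27 for class I, against -0.08 over all entries.

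Among the genes that supply and load class I peptides, none was 2-fold apart in any comparison. This lies near the share of all entries 2-fold apart: 1.05% in youth against kid, 2.08% in adult against youth and 1.76% in adult against kid. The list held the peptide pump (TAP1, TAP2), tapasin, immunoproteasome subunits, trimming peptidases and chaperones. Of its 14 genes, 2 were higher and 2 lower in youth against kid, 1 higher and 5 lower in adult against youth, and none higher and 10 lower in adult against kid, by the exact interval of reads. Of all entries, 11.6% were higher and 27.0% lower in the first comparison, and 22.3% and 27.0% in the second. In the last, the shares were 16.7% and 34.6%. In youth against kid the count of higher genes lies near its share, and the count of lower genes is below its share. The medians of the list were -0.03, -0.12 and -0.20, against -0.08, -0.02 and -0.10 over all entries. PSMB8, an immunoproteasome subunit induced by interferon gamma, was at 10.5, 13.1 and 7.59 FPKM, 1.73-fold lower in adult than youth (1.44 to 2.08). PSMB10, another such subunit, was at 11.5, 9.65 and 12.5 FPKM, 1.29-fold higher in adult than in youth (1.04 to 1.61). ERAP2, which trims peptides in the endoplasmic reticulum, was highest in kid at 2.08 FPKM, against 1.52 and 1.40. The chaperone calreticulin (CALR), the most abundant of the list, was at 87.4, 99.5 and 80.0 FPKM.

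Of 8 genes of class II loading and peptide supply, IFI30 had no entry of that name, and 5 of the other 7, CD74 among them, had a mean of at least 1 FPKM. In adult against youth 4 of the 5 were lower and 1 higher beyond counting error, against 27.0% and 22.3% of all entries, with a median of -0.49 against -0.02 over all entries. In youth against kid 3 were higher and 2 lower, against 11.6% and 27.0%, with a median of 0.15 against -0.08. Cathepsin S (CTSS), the protease that cuts the invariant chain in antigen-presenting cells, was at 13.4 FPKM in the kid library, 9.58 in youth and 6.21 in adult, 2.16-fold lower in adult than in kid (1.82 to 2.58). Cathepsin B (CTSB), the most abundant, was at 104, 117 and 82.6 FPKM. Cathepsin D (CTSD) ran the other way in adult against youth, at 87.2, 68.6 and 107 FPKM in the 3 libraries (1.57-fold higher, 1.47 to 1.67).

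Among 15 regulators of MHC genes, 14 had a mean of at least 1 FPKM, and CIITA stayed below it. Of the 14, 2 were higher and 5 lower in youth against kid, near the 11.6% and 27.0% of all entries, with a median of -0.08 for both. Adult against youth gave 1 higher and 7 lower, against 22.3% and 27.0%, with a median of -0.13 against -0.02. In adult against kid 1 was higher and 8 lower, against 16.7% and 34.6%, with a median of -0.18 against -0.10. On the log2(FPKM + 1) scale none of the 14 was 2-fold apart in any comparison. This lies near the 1.05%, 2.08% and 1.76% of all entries in youth against kid, adult against youth and adult against kid. IRF1, a transcription factor of the interferon response that acts on class I promoters, was at 10.5, 13.3 and 6.92 FPKM, 1.92-fold lower in adult than youth (1.64 to 2.26). The kinase JAK2 and the receptor chain IFNGR1, both of the interferon gamma pathway, were highest in kid: JAK2 at 4.68, 3.31 and 2.23 FPKM and IFNGR1 at 31.1, 20.8 and 18.4 FPKM. As a plain ratio of FPKM, JAK2 was 2.10-fold lower in adult than in kid (1.74 to 2.53). JAK1, the most abundant of the list, was at 34.5, 31.9 and 26.7 FPKM. The class I coactivator NLRC5, chosen after its values were seen, was at 2.77, 3.13 and 2.32 FPKM, 1.35-fold lower in adult than youth (1.15 to 1.59).

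Markers of macrophages and monocytes, cells that carry class II, were mostly lower in adult as well. Summed over 10 macrophage and monocyte markers, the level was 79.6 FPKM in the kid library, 91.1 in youth and 44.4 in adult, and 8 of the 10 were lower and none higher beyond counting error in adult against youth, by the exact interval of reads, where 27.0% of all entries were lower and 22.3% higher. PTPRC, the CD45 antigen of all white blood cells, was at 4.60, 4.94 and 2.68 FPKM, 1.84-fold lower in adult than youth (1.44 to 2.36). The sums of 7 dendritic cell markers were 11, 15.8 and 6.46 FPKM, of which ZBTB46 alone gave 7.79, 9.69 and 4.58, and 2 of the 7 had a mean of at least 1 FPKM. The sums of 8 T and natural killer cell markers were 9.37, 11.9 and 6.36. PAX5, a defining B cell factor, was listed at 0 in all 3 libraries, and the B cell surface gene MS4A1 was at most 0.218 FPKM. Endothelial markers, 6 genes, summed to 165, 147 and 142 FPKM. The part of these cells in the class I and class II differences was not tested.

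**Figure D4:**
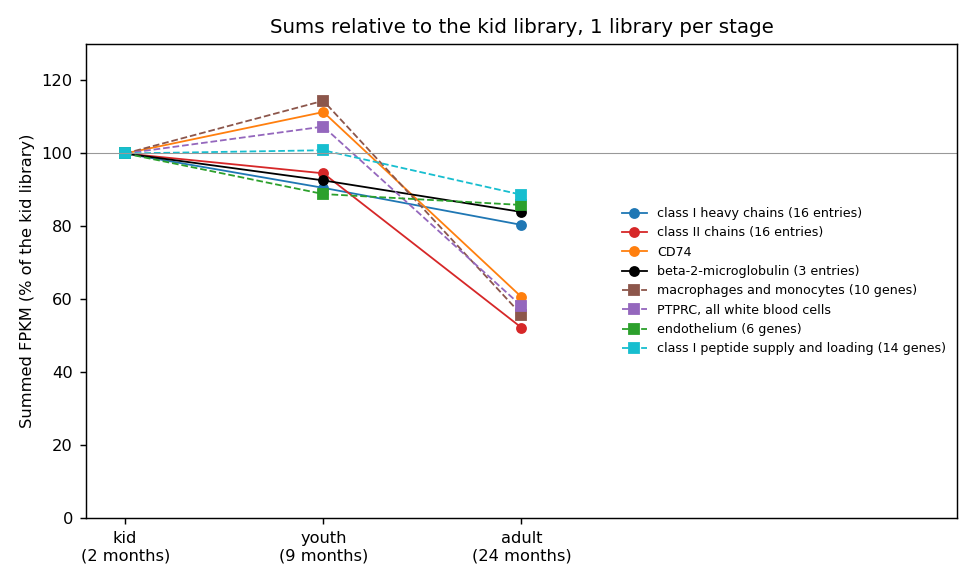
Summed FPKM as a percentage of the kid library for class I heavy chains, class II chains, CD74 and beta-2-microglobulin (solid lines, circles) and for macrophage markers, PTPRC, endothelial markers and genes of class I peptide supply (dashed lines, squares); each point is 1 library. In adult, class II chains (52.3%), CD74 (60.7%), macrophage markers (55.8%) and PTPRC (58.2%) lie together, and class I (80.4%), beta-2-microglobulin (84.0%), endothelium (85.9%) and class I peptide supply (88.7%) lie above them.

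The 2 minor histocompatibility antigens are unrelated to MHC molecules: they are ordinary proteins whose peptide variants were found through transplant rejection. HM13, a signal peptide peptidase of the endoplasmic reticulum, was at 18.2 FPKM in the kid library, 19.5 in youth and 25.9 in adult. Adult was the high library, 1.33-fold above youth (1.18 to 1.49). ARHGAP45, the source of the HA-1 antigen and a protein mainly of blood cells, was at 2.10, 2.28 and 1.56 FPKM. Here adult was the low library, 1.46-fold below youth (1.12 to 1.91).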

How the data were processed

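Total RNA of goat longissimus dorsi went into 3 Illumina libraries (kid, youth and adult, 1 each), per the labels' protocols. What the authors deposited is 1 table of FPKM values with a column for each library. FastQC, TopHat2 and DESeq are named without version or role, per the submitters' processing notes. Not given in the sources used here are build, annotation, counting and the handling of reads that match several genes, and near-identical copies could share, lose or exchange reads.

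Columns were assigned by the letters in the sample titles. Library totals, whole reads and gene lengths were recovered from the FPKM values: for each entry the shortest length from 200 to 40000 bases was taken at which all libraries gave whole reads (within 1e-06 of a read, plus the rounding of the printed value). This resolved 18865 of 18866 entries above 0, and reads so recovered came to 93.3%, 92.9% and 94.2% of the totals. Where reads and length share a factor, fewer reads are returned and the interval is wider. The steps were tested on simulated data.

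Ratios of FPKM were given with Clopper-Pearson 95% intervals of the reads of both libraries. For sums, each library's reads were replaced by an effective number (the squared sum of length-weighted reads over the sum of their squared weights). Such intervals and floors of 3 reads cover counting error only. Differences were taken on the log2(FPKM + 1) scale, which understates those of low entries, among 12121 entries with a mean of at least 1 FPKM. Python 3.11.15, numpy 2.4.6, pandas 2.3.3 and scipy 1.17.1 were used. No test and no p-value was possible with 1 library per age.

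The members, lists and settings were chosen with earlier results of these data known. Members with at least 5 FPKM in a library or 2-fold apart at a mean of at least 1 FPKM were named, other members chosen for their role. From each pathway list, up to 3 genes with the largest difference and the most abundant gene were named. List genes were found through their gene number or, failing that, their product text. Alternatives covered scaling, pseudocount, filter, unit and the entries summed. The summed B cell marker list is not reported here.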

Additional observations from a re-analysis of the deposited data

How the results depend on the processing

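Ratios between libraries (first over second) are given here for 60 alternatives, of which 32 stayed within the main counting interval or, for counts, within 1.5-fold of the main count. The class II sum in adult against youth stayed within its interval under all 6 alternatives run (0.545 to 0.557). For the class I sum in youth against kid (0.906), the ratio was 0.966 after median-of-ratios scaling, 0.942 after quantile normalization, 0.867 with library-scaled reads and 0.867 without the entry at 0 in adult. It turned to 1.20 without the most abundant entry. In adult against youth (0.888) it was 0.946 with library-scaled reads, 0.637 without the most abundant entry and 0.992 without the entry at 0. In adult against kid (0.804) the same ratio was 0.872 after median-of-ratios scaling, 0.767 without the most abundant entry and 0.860 without the entry at 0. For class II in youth against kid (1.02) it was 1.09 after median-of-ratios scaling, 0.944 without CD74, 1.11 without entries described as "-like" (CD74 and CIITA alone) and 0.946 with chains alone. In adult against kid (0.562) those values were 0.609, 0.522, 0.605 and 0.523. For beta-2-microglobulin in youth against kid (0.926), the ratio was 0.988 after median-of-ratios scaling and 0.990 after quantile normalization. It was 0.856 after quantile normalization in adult against youth (0.907) and 0.910 after median-of-ratios scaling in adult against kid (0.840). The count of members 2-fold apart, 4 in each comparison, was 1, 2 and 2 with a pseudocount of 5 in youth against kid, adult against youth and adult against kid, and 1 and 2 at a mean of at least 5 FPKM in youth against kid and adult against kid. Leaving out an entry changes a sum by that entry's part in it, by construction, and the cause of the shifts was not tested. The settings with chains alone, without the entry at 0 and without the class I-related and Gogo-C-like entries were chosen after seeing the data. Class I without "-like" entries could not be computed, since all its entries are so described. No paired analysis was possible because each age has 1 library, and for the same reason no library could be left out. Depth limits the lowest members: 9 entries above 0 had means under 1 FPKM.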

Other observations

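Genes outside the histocompatibility entries whose proteins share the class I fold were also read, from a list of 4 chosen after seeing the data. FCGRT, the heavy chain of the neonatal Fc receptor, which pairs with beta-2-microglobulin to recycle antibodies and albumin, was at 97.8 FPKM in the kid library, 99.6 in youth and 81.6 in adult. It was 1.22-fold lower in adult than youth (1.15 to 1.30), and youth and kid were not beyond counting error (ratio 1.02, 0.957 to 1.08). At this level FCGRT exceeded every class I entry but 102181202 in each library. CD1D, found by its product text and known in human and mouse to show lipids to natural killer T cells, was at 3.17, 5.05 and 5.34 FPKM. It was higher in adult than in kid (1.68-fold, 1.01 to 2.88). An entry described as class I polypeptide-related sequence B-like, of the family of stress ligands for natural killer cells, was at 1.89, 3.03 and 2.25 FPKM, 1.60-fold higher in youth than in kid (1.09 to 2.37). The remaining gene, CD1E, was low, at 0.352, 0.653 and 0.227 FPKM from 8, 14 and 6 reads. Its level was 2.88-fold lower in adult than youth (1.04 to 9.14).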
